A study of Mus musculus with 8 samples.

Results

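The genes described here encode the proteins of the cytosolic ribosome. They were found by name, as every probe other than a control whose gene name began with Rpl or Rps and a digit, leaving out the S6 kinases (names beginning with Rps6k) and pseudogene names (names containing -ps). This gave 83 of the 63328 gene names on the arrays. Of these, 33 are named for the small subunit (40S, Rps names) and 49 for the large subunit (60S, Rpl names). The remaining name, Rps19bp1, is that of a binding partner of Rps19 and not of a ribosomal protein. In the RefSeq gene table (GRCm38.p6) 82 of the names were found, and 81 of these are protein coding. Rps4y2 is listed there as Rps4l, a transcribed pseudogene of chromosome 6.

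Each ribosome holds one copy of most of these proteins, bound to ribosomal RNA, and cells make them in step with ribosomal RNA in the nucleolus. Their messenger RNAs begin with a C followed by a run of C and T (U in the RNA), the terminal oligopyrimidine tract, through which Larp1 and the mTOR pathway set how much of each message is translated. Dividing blood progenitors build ribosomes for growth, and hepatocytes are large resting cells that translate heavily for secretion of plasma proteins. A few members have further roles, such as the binding of Mdm2 by Rpl5 and Rpl11 and the release of ubiquitin from Rps27a.

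Signals were measured in 4 groups with 2 arrays each. Lin- BM cells (arrays L3 and L4) were lineage-negative marrow cells, purified by magnetic depletion from female C57Bl6/J-Tg(UBCGFP)30Scha/J mice, 6 to 8 weeks of age, in which the ubiquitin C promoter drives eGFP in most cells. BM-derived hepatocytes came from livers taken 1 month (arrays B1, B2) or 5 months (arrays G1, G3) after such cells were given through the tail vein to male B6;129S4-F8tm1Kaz/J mice, 6 to 8 weeks of age, which lack functional factor VIII and had been given acetaminophen, a drug that injures hepatocytes. Primary hepatocytes (H2 and H4) were the comparison cells, and their strain and treatment are not given in the sources used here. BM-derived hepatocytes were perfused with collagenase, spun at low speed and sorted on eGFP, a sort that also takes a host hepatocyte fused with a donor cell. Each array held pooled cells of 3 mice, so the spread between the 2 arrays of a group is the spread between pools.

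L3, L4, B1 and B2 lay on one slide and H2, H4, G1 and G3 on another slide with another array design and scan day. Every probe could therefore be used to set 1-month hepatocytes against Lin- BM cells, and likewise 5-month hepatocytes against primary hepatocytes. Across slides only probes of the same sequence were compared, and there slide and group cannot be told apart. The slide of Lin- BM cells held 127 member probes of 61307 and the other 183 of 55681, for 82 members each. Rpl37 was named only on the first and Rps12l2 only on the second. A level below is the log2 of the background-subtracted signal minus the 75th percentile of the array, read from the brightest probe of a gene. Since probes differ in how brightly they hybridise, no level is compared between genes. A difference was called at an adjusted p under 0.05 (limma, Benjamini-Hochberg over all genes tested) and a log2 difference beyond 0.6 in size, and "rose" and "fell" are used only of called differences.

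Member spots were well above background in 95.3% to 98.4% of cases, against 47.7% to 58.6% for all spots, and 0 spots were saturated. The arrays of 1-month hepatocytes were the dimmest, with an upper quartile signal of 75.5 and 89.5 against 122 to 193 on the other arrays. On the slide of Lin- BM cells, the summed relative level of 5 hepatocyte markers was 0.121 to 0.201 in Lin- BM cells and 1252 to 1359 at 1 month. The sums of 5 blood progenitor markers were 715 to 724 and 3.47 to 5.72, where 4 of the 5 were still well above background at 1 month, those of 3 erythroid markers 191 to 205 and 1.53 to 3.12, and those of 3 proliferation markers 46.7 to 154 and 0.200 to 0.298. On the other slide hepatocyte markers summed to 3434 to 3790 in primary hepatocytes and 3757 to 4346 at 5 months, partly from other probes, so sums are not compared between slides. Leukocyte and Kupffer cell markers were uneven between arrays of one group, with sums of 6.75 and 37.2 at 1 month and 72.7 and 35.6 in Lin- BM cells. Of 5 such markers tested at 1 month against Lin- BM cells, 1 rose and 2 fell. The rise was that of the Kupffer cell marker Clec4f (6.77, limma, adjusted p = 0.00381). Hepatocyte, blood progenitor, erythroid and proliferation markers thus met the labels, with a low progenitor signal at 1 month. Such a signal was also present on the other slide, where 3 progenitor markers were tested. Their sums were 1.23 to 1.78 in primary hepatocytes and 1.35 to 1.41 at 5 months. Leukocyte and Kupffer cell markers were mixed at 1 month, and their part in the member values was not tested.

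At 1 month, read from the brightest probe of each gene, more ribosomal protein genes fell than rose against Lin- BM cells, by different amounts. Of the 81 members tested, 28 fell (34.6%), 6 rose (7.41%) and 47 were not called, where 26.5% of the 28534 genes tested fell and 28.8% rose. The median log2 difference of the members was -0.52, against 0.07 over all genes. Their middle 50% ran from -1.18 to -0.0048, against -1.23 to 1.18 for all genes. A log2 difference beyond 1 was measured for 30 of 81 members and for 16572 of 28534 genes, and 61 of 81 members were below 0. Of the 33 members with a probe shared by both designs, fitted over the 4 groups, 10 fell and 6 rose, where 31.9% of 9226 genes fell and 30.8% rose. Their median was -0.047, against -0.029 over all genes. In bulk samples such as these, fewer cells of a type and less RNA per cell cannot be told apart. The split of calls depended on the scaling, with 2 higher and 49 lower after normexp background correction and 1 higher and 50 lower after quantile normalization. It also depended on single arrays, with 18 lower and 0 higher without B1, 15 lower and 1 higher without B2, 23 lower and 1 higher without L3, and 22 lower and 2 higher without L4. The low brightness of B1 and B2 moved with these differences, as did the markers of blood progenitors (5 of 5 lower), of erythroid cells (3 of 3 lower) and of proliferating cells (3 of 3 lower), and their part in the result was not tested.

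**Figure D1:**
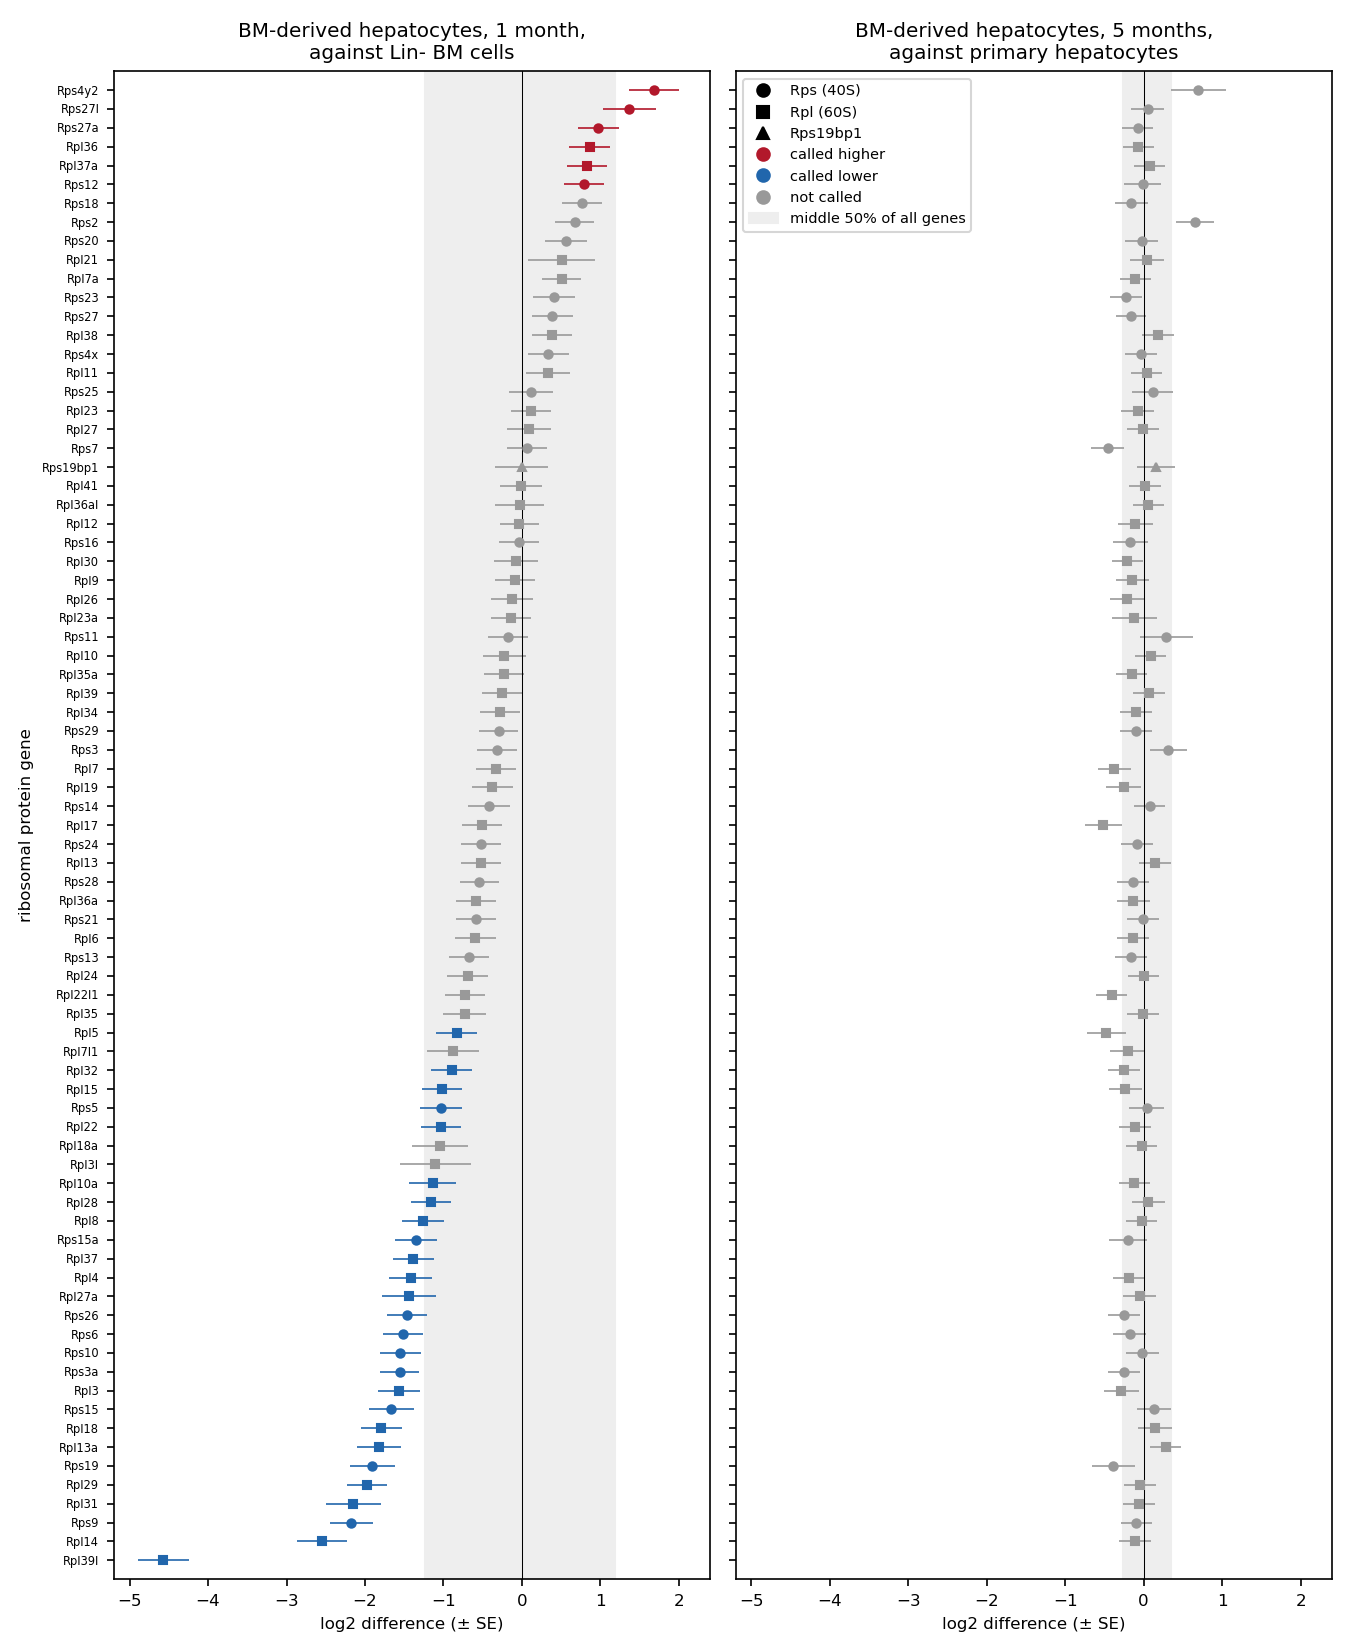
Log2 difference of each of the ribosomal protein genes with its standard error, for 1 month against Lin- BM cells (left) and 5 months against primary hepatocytes (right). Circles are 40S, squares 60S and the triangle Rps19bp1, red is higher, blue lower and grey not called, and the grey band holds the middle 50% of all genes. The plot draws 79 members, of which on the left 26 are lower and 6 higher, and on the right all are grey and between -0.51 and 0.70.

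Both subunits held members that fell. Among the 32 members named for the small subunit 11 fell and 4 rose, with a median of -0.37. These rises include that of the pseudogene Rps4y2. Among the 48 named for the large subunit 17 fell and 2 rose, with a median of -0.59. The median standard error of a member was 0.26, against a range of the members from -4.57 to 1.69. The lower end is that of a member not well above background at 1 month. Among the 79 members well above background on all 4 arrays the range was -2.55 to 1.69.

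The largest fall among members well above background on all 4 arrays was that of Rpl14, a protein of the large subunit. Its level was 3.46 and 4.04 in Lin- BM cells and 1.29 and 1.11 at 1 month, a log2 difference of -2.55 ± 0.32 (SE) with an adjusted p of 0.00326. The groups did not overlap. Rps9, a protein of the small subunit that helps to hold the decoding site accurate, was at 7.40 and 7.43 in Lin- BM cells and at 5.41 and 5.07 at 1 month. It fell by 2.17 on the log2 scale (adjusted p = 0.00342). Rpl31, which lies at the exit of the tunnel for the nascent chain, was at 3.73 and 4.46 against 2.07 and 1.83, a difference of -2.15 ± 0.35. Rpl29, a protein of the surface of the large subunit, was at 6.11 and 6.06 against 4.15 and 4.08, a difference of -1.97 ± 0.25. In each of these genes both 1-month arrays were below both arrays of Lin- BM cells by more than the spread within either group.

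Rps19, the gene most often mutated in Diamond-Blackfan anaemia, a failure of red cell production, was at 4.08 and 4.07 in Lin- BM cells and at 2.38 and 1.96 at 1 month. Its difference was -1.91 ± 0.29 with an adjusted p of 0.00556. Rpl13a, a protein that can leave the ribosome and silence inflammatory messages, was at 8.14 and 7.78 against 6.20 and 6.08, a difference of -1.82 ± 0.28. Rpl18 was at 7.34 and 7.27 against 5.64 and 5.40, a difference of -1.79 ± 0.26, and Rps15 at 5.81 and 5.44 against 4.06 and 3.86, a difference of -1.67 ± 0.28. These 2 are core proteins of the large and the small subunit, and their groups did not overlap either. Rpl3, which reaches towards the peptidyl transferase centre, was at 7.46 and 7.27 against 5.89 and 5.72, a difference of -1.56 ± 0.26 (adjusted p = 0.0078). Rps6, the substrate of the S6 kinases, was at 7.26 and 7.18 against 5.73 and 5.68. It fell by 1.51 on the log2 scale (adjusted p = 0.00761), and the arrays of each group lay close together.

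The remaining falls of members were between -1.56 (Rps3a) and -0.83 (Rpl5), besides that of Rpl39l, described with its parent gene. Rpl5, which is brought with Rpl11 and the 5S ribosomal RNA to the large subunit, was at 9.08 and 8.96 in Lin- BM cells and at 8.30 and 8.08 at 1 month. Its adjusted p was 0.0481, close to the threshold, and the call was lost when any of the 4 arrays was left out. Its partner Rpl11 was at 8.21 and 8.27 against 8.74 and 8.40, a difference of 0.33 ± 0.27 that was not called (adjusted p = 0.344). The difference between Rpl5 and Rpl11 was not itself tested.

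The 6 rises were smaller than the leading falls. Rps4y2, the pseudogene of the X-linked Rps4x, was at 3.21 and 3.46 in Lin- BM cells and at 5.30 and 4.74 at 1 month, a difference of 1.69 ± 0.32 (adjusted p = 0.0107). Rps4x itself, the functional gene, differed by 0.34 ± 0.26 and was not called. Rps27l, a target of p53 and close relative of Rps27, was at 5.97 and 6.67 against 7.71 and 7.67, a difference of 1.37 ± 0.34 (adjusted p = 0.0231). Rps27a, which is made as a fusion with ubiquitin, was at 6.99 and 6.87 against 7.84 and 7.97, a difference of 0.98 ± 0.26 (adjusted p = 0.029). Rpl36 (8.20 and 8.40 against 9.15 and 9.17), Rpl37a (9.03 and 8.98 against 9.81 and 9.87) and Rps12 (8.14 and 8.11 against 8.87 and 8.97) differed by 0.86, 0.83 and 0.79. In all of these both 1-month arrays were above both arrays of Lin- BM cells. After quantile normalization the rise of Rps4y2 was the only one called and Rpl37a lay at -0.10, and after normexp correction the rises of Rps4y2 and Rps27l were called.

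**Figure D2:**
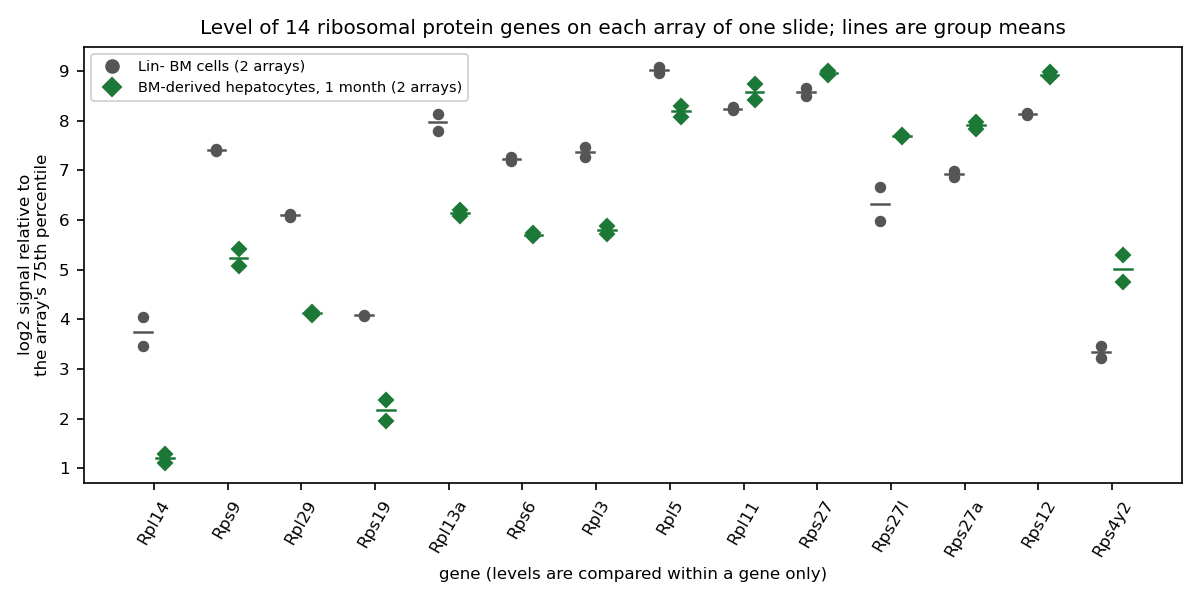
Level of 14 ribosomal protein genes on the 4 arrays of the slide of Lin- BM cells (grey circles) and 1-month BM-derived hepatocytes (green diamonds), as log2 signal relative to the 75th percentile of the array. Points are arrays and short lines group means, and levels are compared within a gene only. Rpl14, Rps9, Rpl29, Rps19, Rpl13a, Rps6, Rpl3 and Rpl5 are lower at 1 month and Rps27l, Rps27a, Rps12 and Rps4y2 higher, while Rpl11 and Rps27 were not called.

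Several members have a paralog, a second gene for a similar protein. Rpl39l, a paralog of Rpl39 best known from male germ cells, was at -1.17 and -0.56 in Lin- BM cells and not well above background at 1 month, which makes it at least 6.31-fold lower there (adjusted p = 0.000726). The bound sets the mean of Lin- BM cells against the lowest signal of a probe well above background on each 1-month array, or the probe's own signal where that was higher. The parent Rpl39 differed by -0.25 ± 0.25 and was not called (adjusted p = 0.433). Rps27l rose by 1.37, as given above, whereas Rps27 was at 8.65 and 8.5 against 8.92 and 9.0 and was not called (0.39 ± 0.26, adjusted p = 0.251). Rpl22 fell by 1.03 on the log2 scale, and its paralog Rpl22l1 differed by -0.72 ± 0.26 (adjusted p = 0.0638). Rpl3l, a paralog of Rpl3 found mainly in muscle, was not well above background at 1 month (adjusted p = 0.0941), and Rpl36a and Rpl36al were not called (-0.58 and -0.03). Whether the paralogs of a pair differed from each other in response was not tested. Rps19bp1, the binding partner of Rps19, differed by -0.0048 ± 0.33.

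The probes of one gene did not always give the same difference. On this slide 33 members had several probes, and the distance between the highest and the lowest difference of a member had a median of 0.83, with 11 members over 1. Of 125 member probes tested, 49 fell and 6 rose, where 27.5% of all 35741 probes fell and 27.4% rose. For 3 members, Rpl29 and Rpl31 among them, every probe fell, for another 17 some did, and for 0 members were probes called in opposite directions. Rpl29 (chr9:106428889-106431568 in GRCm38.p6) was measured by 4 probes with differences of -1.97, -2.04, -2.46 and -1.60, shown here in that order because its fall rests on the whole set.

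Rpl29, brightest probe: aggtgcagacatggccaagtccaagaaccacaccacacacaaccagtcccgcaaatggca
Rpl29, probe at -2.04: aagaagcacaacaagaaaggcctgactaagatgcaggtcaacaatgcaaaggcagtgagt
Rpl29, probe at -2.46: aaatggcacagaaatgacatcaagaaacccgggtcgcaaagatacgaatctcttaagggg
Rpl29, probe at -1.60: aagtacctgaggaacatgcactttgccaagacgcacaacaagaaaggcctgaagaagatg

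Rps3, a protein of the small subunit that also repairs DNA, had a probe at -0.32, not called, and another that fell by 2.32. Rpl36 rose by its brightest probe, but its other probes were at -0.48 and -0.46 and not called, and the mean of its probes was -0.027. Of the probes named Rpl12, one at 1.17 and 0.95 in Lin- BM cells and -1.73 and -2.96 at 1 month, carries the accession of Snora65, a small nucleolar RNA, and begins with cttttaggaaacagggctgtcctacatgtg. The probe that matches Rpl12 itself was at -0.03, with 8.64 and 8.65 against 8.64 and 8.58. Of the 127 member probes of this design, 120 had an accession of the gene they are named for, 6 an accession absent from the table, and 1, this probe, that of another gene.

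**Figure D3:**
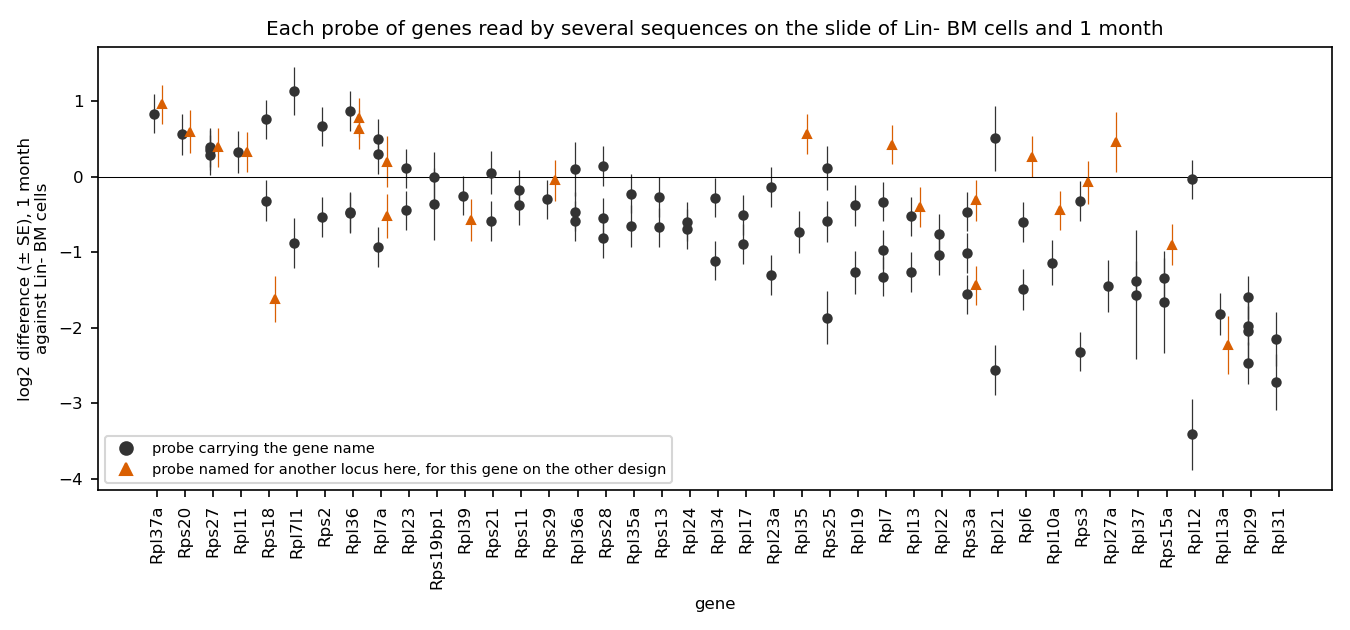
Log2 difference with its standard error, 1 month against Lin- BM cells, for each probe of ribosomal protein genes read by several sequences on the slide. Dots are probes that carry the gene's own name and orange triangles probes that carry the name of another locus here but the gene's name on the other design. The probes of Rpl29 and Rpl31 are all lower, whereas those of Rpl12 and Rps3 lie up to 3.38 apart.

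Ribosomal protein genes have many processed pseudogenes, copies of their messenger RNA elsewhere in the genome, and an array of 60-base probes cannot always tell a gene from its copies. The designs shared 40 member sequences for 33 genes, and 23 of these were named on the slide of Lin- BM cells for another locus and on the other slide for the ribosomal protein gene. Beside a probe named for the member, 7 of the 23 had a difference of the opposite sign. In 4 pairs both were called in the same direction, and in 1 pair both were called in opposite directions. Of the pairs 6 lay over 1 apart, with a median distance of 0.32. Rps18 (chr17:33951998-33955665), which lies in the head of the small subunit, was at 8.96 and 8.97 against 9.76 and 9.69 by its brightest probe (0.76, adjusted p = 0.0541, not called) and at -0.32 by another. The sequence named for the pseudogene Gm6630 on chromosome 16 was at 6.26 and 6.14 against 4.83 and 4.33 and fell by 1.62. These sequences are printed because the direction of Rps18 depends on which is read.

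Rps18, brightest probe: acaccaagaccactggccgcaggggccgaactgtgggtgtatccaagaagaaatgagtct
Rps18, second probe: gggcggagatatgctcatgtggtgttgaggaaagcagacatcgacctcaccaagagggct
Rps18, named Gm6630: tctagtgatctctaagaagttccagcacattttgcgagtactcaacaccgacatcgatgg

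Rps3a (chr3:86137940-86142668) shows how close such probes can be. Its brightest probe, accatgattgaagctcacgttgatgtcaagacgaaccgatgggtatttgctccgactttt, was at 8.19 and 8.23 against 6.63 and 6.67 and fell by 1.56. A pair of further Rps3a probes share 39 bases with 1 mismatch, A20G counted from the 5′ end of the first, shown in capitals. The first fell by 1.01 and the second was at -0.46 and not called. A further sequence, named for the pseudogene Gm8960 of chromosome 10, shares 24 bases with the second with the mismatches T38C and A51G counted from its own 5′ end, and was at -0.31 and not called.

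Rps3a, at -1.01: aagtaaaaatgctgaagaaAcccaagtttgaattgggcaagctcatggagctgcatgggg
Rps3a, at -0.46: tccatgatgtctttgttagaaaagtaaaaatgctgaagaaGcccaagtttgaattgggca
Gm8960, at -0.31: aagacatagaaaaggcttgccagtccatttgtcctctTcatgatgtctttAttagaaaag

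For Rpl36, the brightest probe and the one named LOC637553 are the same 60 bases, beginning ggcggcggccaagaaggattgatgaaccct, and gave 0.86 and 0.78. In this pair the repeated sequence thus differed by less than the standard error of 0.27, and other repeated sequences were not examined.

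Sequences at the start of the genes were read from RefSeq promoter windows (GRCm38.p6), which were found for 61 members. A tract of a C followed by at least 4 C or T, beginning within 10 bases of the annotated start, was present on the strand of the gene in 38 of 61 members (62.3%), against 34.4% of all 27025 genes. On the opposite strand the shares were 24.6% and 38.5%. A gene with several windows, and so several annotated starts, was counted where any of them held the tract. Some members counted with the tract, Rps19, Rpl22, Rpl10a and Rps27l among them, also had a window without it. Of members that fell 16 of 21 had the tract, of those that rose 2 of 3 and of those not called 19 of 36. The windows below give 20 bases before and 20 from the annotated start for members of each kind, with the tract in capitals.

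Rpl14, fell, chr9:120571497-120571536, plus strand: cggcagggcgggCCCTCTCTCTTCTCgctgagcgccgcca
Rps9, fell, chr7:3704021-3704060, plus strand: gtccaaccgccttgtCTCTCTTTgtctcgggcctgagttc
Rpl31, fell, chr1:39367831-39367870, plus strand: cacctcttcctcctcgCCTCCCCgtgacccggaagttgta
Rpl18, fell, chr7:45718051-45718090, plus strand: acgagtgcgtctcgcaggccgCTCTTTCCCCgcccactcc
Rps6, fell, chr4:86857348-86857387, minus strand: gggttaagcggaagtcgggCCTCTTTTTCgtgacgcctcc
Rps12, rose, chr10:23787190-23787229, minus strand: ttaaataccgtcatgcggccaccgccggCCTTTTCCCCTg
Rpl37a, rose, chr1:72711240-72711279, plus strand, no tract found: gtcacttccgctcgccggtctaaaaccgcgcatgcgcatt

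Members of each kind held the tract, and the difference between their shares was not tested. In Rpl14, the leading fall, it spans the start, and in Rps12, which rose, it begins 8 bases after the start. A match describes letters only. The starts are those of the promoter windows, and for 10 of the 61 members, Rps9, Rpl18, Rps12 and Rpl5 among them, each lies inside the gene as the RefSeq gene table gives it, so that a tract at the outer start was not counted.

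Other genes of protein synthesis were set beside the ribosomal proteins by their counts and medians. Over all 28534 genes tested 26.5% fell and 28.8% rose, with a median of 0.07. Of 6 ribosomal proteins with names outside the rule, Rplp1, a protein of the stalk, rose (1.09) and Rpsa, the small subunit protein also known as a laminin receptor, fell (-1.98), with a median of 0.58. Of 16 elongation factors and other genes with oligopyrimidine messages 6 fell (37.5%) and 1 rose (6.25%), with a median of -0.55, close to that of the members. The falls included Hnrnpa1 (-2.97), Pabpc1, the poly(A) binding protein (-1.64), Npm1, a nucleolar chaperone (-1.44) and Eef1g (-1.14), while Eef1a1, which brings transfer RNA to the ribosome, rose (1.16). Of 35 genes of ribosome biogenesis 27 fell (77.1%) and 0 rose, with a median of -1.71. These included Tcof1 (-3.58), Dkc1, the pseudouridine synthase of ribosomal RNA (-2.74), Ncl, nucleolin (-2.41), Fbl, the methyltransferase fibrillarin (-1.72), and Polr1a, the large subunit of RNA polymerase I (-1.47). Of 79 proteins of the mitochondrial ribosome 8 rose (10.1%) and 3 fell (3.80%), both shares below those of all genes, with a median of 0.36. Their rises were led by Mrpl14 (1.94) and Mrpl38 (1.47), and the falls were Mrps25 (-1.80), Mrpl19 (-1.51) and Mrpl3 (-1.09). Among 11 growth regulators 2 fell (18.2%) and 1 rose (9.09%). The falls were those of Myc (-3.40) and its partner Max (-2.24), and the rise that of Mxd4 (1.29), an antagonist of Myc. Larp1 (-0.43), Mtor (0.17) and Rps6kb1 (-0.35) were not called. The differences between these lists were not tested.

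**Figure D4:**
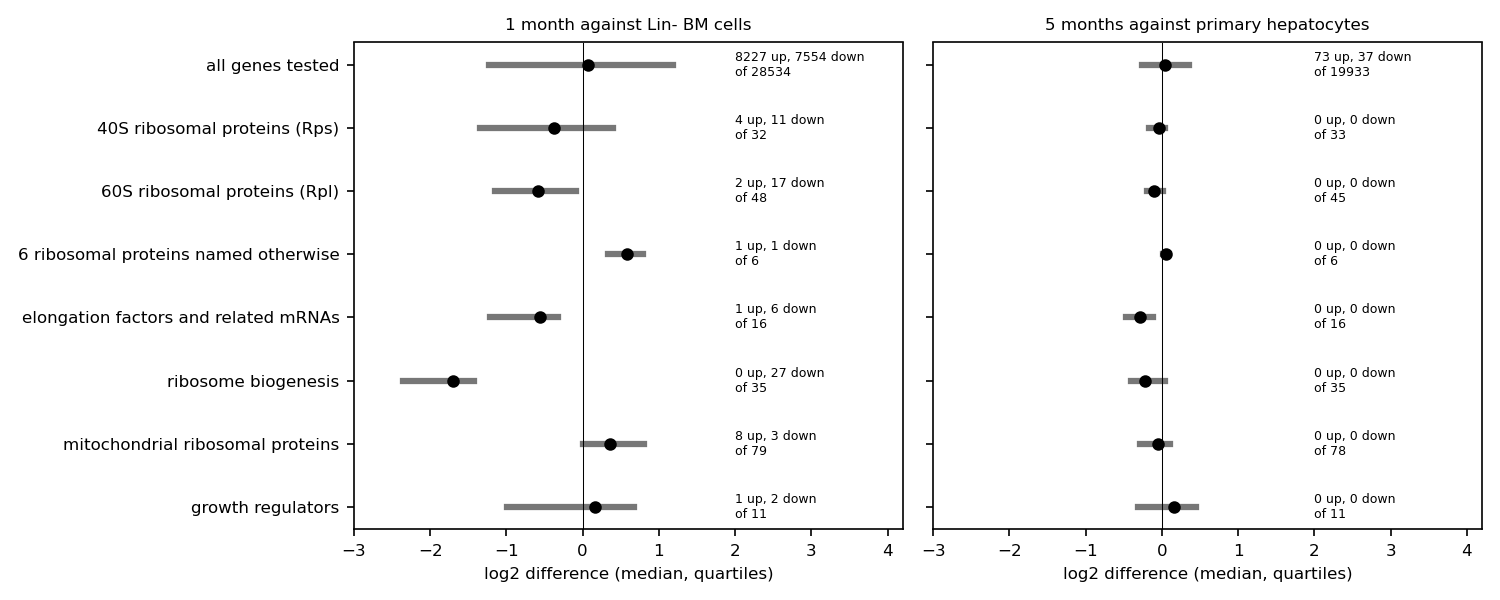
Median and quartiles of the log2 difference for all genes, 40S and 60S members, 6 ribosomal proteins with other names, elongation factors, ribosome biogenesis, mitochondrial ribosomal proteins and growth regulators, with the number of genes higher and lower. The left panel is 1 month against Lin- BM cells and the right 5 months against primary hepatocytes. On the left ribosome biogenesis has the lowest median (-1.71) and mitochondrial ribosomal proteins lie at 0.36, and on the right 0 genes of the lists below the row of all genes are called.

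At 5 months after transplantation no ribosomal protein gene of BM-derived hepatocytes was called against primary hepatocytes. Of 79 members tested 0 were called, by limma in every setting tried and by the methods' t-test, where 0.552% of the 19933 genes tested were called in either direction. At an unadjusted p under 0.05 there was 1 member by limma, and 0 by the t-test with its limit on the difference. The median difference was -0.07, against 0.04 over all genes, with a middle 50% from -0.17 to 0.04. All 79 lay between -0.51 and 0.70, so 0 members differed by more than 1, compared with 1998 of 19933 genes. With 2 arrays in a group, a p that misses the threshold does not show that values were equal.

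The member with an unadjusted p under 0.05 was Rps2, a small subunit protein, at 8.15 and 7.80 in primary hepatocytes and 8.51 and 8.75 at 5 months, a difference of 0.65 ± 0.24 (limma, adjusted p = 0.353). Another Rps2 probe was at -0.27 and not called. Rps4y2 was at 4.24 and 3.41 against 4.61 and 4.44, a difference of 0.70 ± 0.35, and Rpl17 at 7.22 and 7.28 against 6.93 and 6.55, a difference of -0.51 ± 0.23. These were the ends of the range, and neither was called (adjusted p of 0.461 and 0.431). Members that fell at 1 month on the other slide were here at -0.11 (Rpl14), -0.09 (Rps9), -0.04 (Rpl29), -0.06 (Rpl31) and -0.18 (Rps6), each with a standard error of 0.20 or 0.21. Rps19 was at 4.78 and 4.34 against 4.0 and 4.35, a difference of -0.39 ± 0.27, with the groups overlapping. Rpl5 and Rpl11, the partners of Mdm2, were at -0.47 ± 0.24 and 0.04 ± 0.20. Rps27a, Rps27l and Rps27 were at -0.07, 0.05 and -0.16, and Rps19bp1 at 0.16.

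Probes of one gene also lay closer together here. Over 59 members with several probes the median distance was 0.12, with 2 members over 1. Of 176 member probes 0 were called, where 0.703% of 27027 probes were. Rps6 held a probe at 1.03, with 2.24 and 1.69 in primary hepatocytes and 2.98 and 3.0 at 5 months, beside probes at -0.18 and -0.39. A Rpl15 probe was at 4.43 and 4.29 against 3.30 and 3.20, a difference of -1.11, beside another at -0.23. These were the only 2 member probes beyond 1, and neither was called. By the positions printed on this design, 157 of 182 placed member probes lie on the chromosome of the gene and 23, of 15 members, on another, among them 4 of Rps27 on chromosome 9 and 3 of Rps29 on chromosome 2. The other lists of protein synthesis had 0 calls too, with medians of -0.22 for ribosome biogenesis, -0.28 for elongation factors and -0.04 for mitochondrial ribosomal proteins. Leukocyte and Kupffer cell markers were above 0 for 5 of 5 genes (0.73 to 1.47) with none called, and their part in the member values was not tested.

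Across slides, 33 members had a probe of the same sequence on both designs, and these were fitted with all 8 arrays. Each level of this kind is relative to the 75th percentile over shared probes. Against the same 2 arrays of Lin- BM cells, primary hepatocytes had 14 members lower and 9 higher, where 38.0% of the 9226 genes tested were lower and 29.3% higher. Hepatocytes at 5 months had 15 lower and 10 higher, where 37.7% were lower and 29.3% higher. The medians were -0.42 and -0.23, against -0.29 and -0.30 over all genes. Slide, design and scan day differ between these groups, and the split moved with the scaling. Quantile normalization gave 21 lower and 2 higher in both comparisons. The percentile over all probes and the authors' values both gave 9 lower and 13 higher for primary hepatocytes and 12 lower and 11 higher at 5 months. The latter settings moved the median of all genes by 0.24 and 0.26 for primary hepatocytes and by 0.20 and 0.21 at 5 months, and left the members' median minus that of all genes at -0.13 and at 0.07 and 0.06. Normexp correction gave 13 lower and 8 higher in both. Leaving out H4 gave 9 lower for primary hepatocytes, and leaving out G1, G3 or L4 gave 6, 5 and 6 higher at 5 months. Because both comparisons share L3 and L4, they are not independent of each other or of the comparison at 1 month. Of the 33, 14 had the same name on both designs (9 lower and 3 higher in primary hepatocytes) and 19 another name on the slide of Lin- BM cells (5 lower and 6 higher).

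The largest falls of a member well above background in every group were those of Rpl31, Rpl14, Rpl21 and Rpl13a. Rpl31 was at 0.88 and 1.57 in Lin- BM cells, -1.44 and -1.48 at 1 month, -1.57 and -1.88 in primary hepatocytes, and -1.91 and -2.13 at 5 months. All 6 hepatocyte arrays lay below both arrays of Lin- BM cells, by -2.95 (primary hepatocytes) and -3.24 (5 months) on average. Rpl14 was at 2.09 and 2.51 in Lin- BM cells, -0.16 and -0.28 at 1 month, -0.0028 and -0.67 in primary hepatocytes, and -0.31 and -0.49 at 5 months. Its differences were -2.64 and -2.7. Rpl21, a large subunit protein, differed by -2.20 and -2.60. On the 1-month slide 1 Rpl21 probe fell (-2.56), whereas another was at 0.51 and not called. Rpl13a, by a sequence named LOC638236 on the slide of Lin- BM cells, differed by -2.08 and -1.82. By these shared sequences of Rpl21 and Rpl13a the hepatocyte arrays again lay below those of Lin- BM cells.

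Rps27l was the member with the largest rise. It was at 4.60 and 5.15 in Lin- BM cells, 6.26 and 6.28 at 1 month, 6.66 and 6.62 in primary hepatocytes, and 6.63 and 6.82 at 5 months, with differences of 1.76 and 1.85. Rpl7l1, a relative of Rpl7, was at -2.30 and -1.88 in Lin- BM cells, -1.03 and -0.83 at 1 month, -0.20 and -0.48 in primary hepatocytes, and -0.55 and -0.46 at 5 months. This probe gave 1.75 and 1.59, whereas the brighter Rpl7l1 probe of the 1-month slide was at -0.88 and not called. Rps20 (1.07 and 1.12), Rpl37a (0.87 and 1.01) and Rpl36 (0.65 and 0.62) were higher too, each by a sequence named for another locus on the slide of Lin- BM cells. All 3 turned below 0 after quantile normalization in both comparisons. Rpl39l was well above background on the 2 arrays of Lin- BM cells, on 1 of 2 of primary hepatocytes and on 0 at 1 and 5 months, and Rpl3l on those of Lin- BM cells only.

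**Figure D5:**
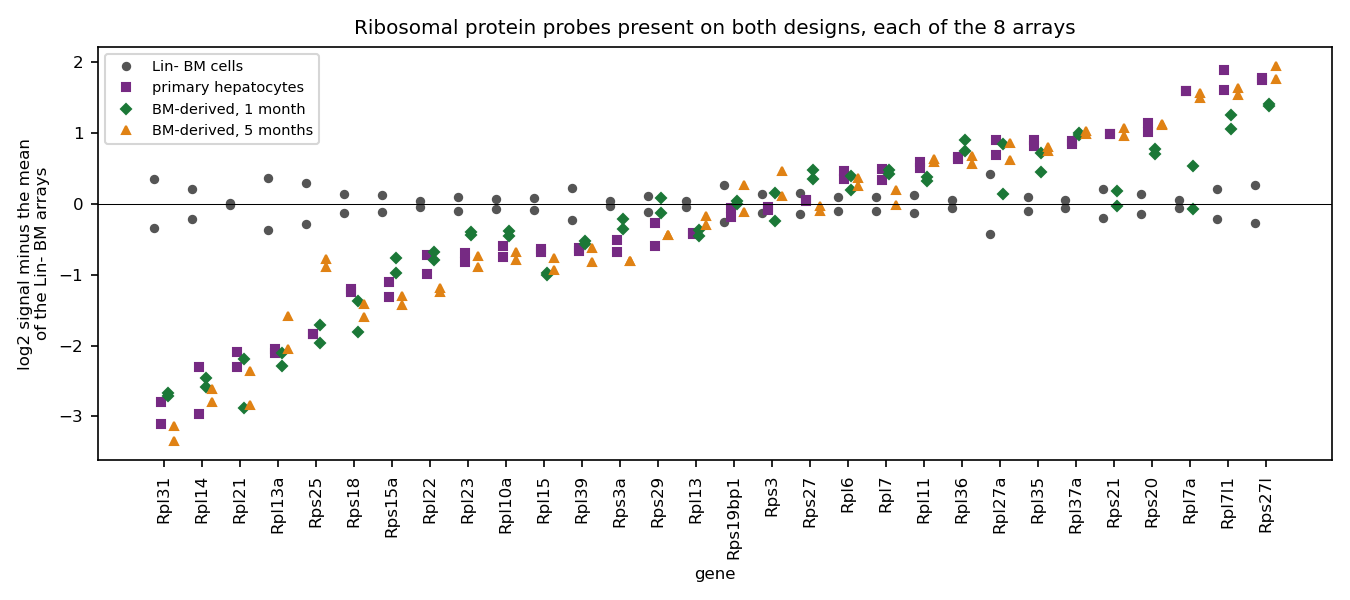
Log2 signal on each of the 8 arrays minus the mean of the arrays of Lin- BM cells, for 30 ribosomal protein genes (horizontal axis) with a probe of the same sequence on both designs, well above background on all arrays. Grey circles are Lin- BM cells, purple squares primary hepatocytes, green diamonds 1 month and orange triangles 5 months, and groups of different slides differ also in design and scan day. Rpl31, Rpl14, Rpl21 and Rpl13a are low on the 6 hepatocyte arrays and Rps27l and Rpl7l1 high, and for Rpl7a and Rps21 the 1-month arrays lie with Lin- BM cells.

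Between hepatocyte groups of different slides few members were called. For 1 month against primary hepatocytes 2 of 33 were lower and 1 higher, where 5.11% of genes were lower and 11.6% higher, with medians of 0.02 for the members and 0.18 for all genes. For 5 months against 1 month 3 were higher and 1 lower, where 5.81% were higher and 11.3% lower, with medians of 0.02 and -0.14. Rpl7a, a large subunit protein measured by a sequence named Gm8527 on one design, was at 5.58 and 4.96 at 1 month, 6.64 and 6.63 in primary hepatocytes, and 6.54 and 6.60 at 5 months. Its differences were -1.37 ± 0.26 (1 month against primary hepatocytes, adjusted p = 0.0183) and 1.30 ± 0.26 (5 months against 1 month, adjusted p = 0.0219). In Lin- BM cells it was at 5.10 and 4.98, within the range of the 1-month arrays. Rps21, a small subunit protein with the same name on both designs, was at 3.59 and 3.37 at 1 month, 4.39 and 4.39 in primary hepatocytes, 4.36 and 4.48 at 5 months and 3.61 and 3.19 in Lin- BM cells. Its differences were -0.91 (adjusted p = 0.0456) and 0.94 (adjusted p = 0.0406). In both genes the 1-month arrays lay with Lin- BM cells, which share their slide, and the others with the second slide, so that slide and group cannot be told apart. Rps25 was at -3.26 and -3.0 at 1 month, -3.13 and -3.13 in primary hepatocytes and -2.07 and -2.19 at 5 months, a difference of 1.01 ± 0.26 between 5 months and 1 month (adjusted p = 0.0464). This rests on 1 sequence. Within slides Rps25 probes ran from -1.87 to 0.11 at 1 month against Lin- BM cells and were at 0.11 and 0.96 at 5 months against primary hepatocytes. The remaining call of both comparisons between slides was Rpl3l, which was not well above background in any hepatocyte group and has no fold there. These calls rested on single arrays, with 0 left in either comparison without B2, 0 at 5 months against 1 month without G1 or G3, and 0 for 1 month against primary hepatocytes without H2. For 1 month against primary hepatocytes 1 lower was left without H4, B1, G1 or G3, and for 5 months against 1 month 1 higher was left without H2, H4 or B1.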

How the data were processed

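Gene expression was measured on 8 single-colour Agilent arrays. The deposited intensities are background-subtracted signals of Feature Extraction, given for each spot, and the authors' values table holds log2 signals after a shift to the 75th percentile in GeneSpring GX, used here as an alternative. Probe names are those of the designs. Outlier spots were left out, spots of one probe averaged and log2 signals reduced by the 75th percentile of the array (across slides, over probes of identical sequence). A probe was kept where both arrays of some group had it well above background, and the brightest probe stood for the gene. Differences were fitted by limma 3.58.1 in R 4.3.3, which replaced the t-test of the methods because of the 2 arrays in a group. The precision is limited by that number. The fit was tested on simulated data. Figures were made with Python 3.11.15 and matplotlib 3.10.9.

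The members, gene lists and tests were chosen with earlier results of these data known. Genes named singly were the 8 largest called rises and falls within a slide, paralogs with their parents, Rps19, Rpl5, Rpl11, Rps6, Rps27a and Rps19bp1, members called against Lin- BM cells in each hepatocyte group, and those called between hepatocyte groups. Rps4x, Rps3, Rps3a, Rpl12, Rpl36, Rps18, Rps2, Rpl17, Rpl15 and genes of the lists were named after their values were seen. Alternatives tried were quantile normalization, normexp background correction (offset 50), another set of probes for the percentile, no filter, the mean of a gene's probes, shared probes only, the authors' values, the methods' t-test and leaving out each array. A planned comparison of protein sequences and a match of probes to the genome were not run, because no protein table or genome was used here. Some members counted among the genes are not reported here by name, nor drawn in the figures.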

Additional observations from a re-analysis of the deposited data

How the results depend on the processing

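For 1 month against Lin- BM cells, normexp correction gave 2 members higher and 49 lower, quantile normalization 1 and 50 with a median of -1.01, and the methods' t-test after adjustment 4 and 16 (7 and 31 unadjusted). Shared probes fitted over 4 groups gave 10 lower and 6 higher of 33 members and a median of -0.047, against -0.029 over all genes, a distance of -0.017. Leaving out an array gave 0 to 2 higher, 15 to 23 lower and medians of -0.54 to -0.49. Normexp moved the median of all genes by 0.30 and quantile normalization by -0.15, so that the members lay below it by -0.59 as reported, -1.14 and -0.92. Of the 34 calls, 30 were kept under normexp, 29 under quantile normalization, 33 with the mean of probes, 17 with the t-test, 34 with the authors' values, 34 without the filter and 16 to 23 without an array. Single members that turned sign were Rpl37a (-0.10) under quantile normalization, Rpl36 (-0.027) with the mean of probes and Rpl7l1 (1.16) with shared probes. For these the cause was not tested.

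For primary hepatocytes against Lin- BM cells the median was -0.11 under normexp, -1.16 under quantile normalization (2 higher), -0.18 with the percentile over all probes (9 lower) and -0.17 with the authors' values (9 lower). Leaving out an array gave 9 to 14 lower and 7 to 11 higher. For 5 months against Lin- BM cells quantile normalization gave 2 higher and a median of -1.31, and leaving out an array 5 to 11 higher. Rps20 was at -0.047 and -0.068 under quantile normalization in these comparisons. For 1 month against primary hepatocytes quantile normalization gave 1 lower, and the median was -0.25 with the percentile over all probes and with the authors' values. Leaving out an array gave 0 to 1 higher and 0 to 2 lower. For 5 months against 1 month normexp gave 2 lower, and leaving out an array 0 to 3 higher and 0 to 1 lower. Where the lone array of a group was left, it was assumed to vary like the other groups.

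For 5 months against primary hepatocytes 0 members were called in each setting tried. No paired analysis was possible because the groups compared share fewer than 2 replicate numbers. Slide as a block leaves comparisons within a slide as they are and cannot be fitted across slides. The number of arrays and the dim signals at 1 month limit small differences.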
